A study of Mus musculus and Homo sapiens with 12 samples.

Results

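The 7 intestinal lineage transcription factor genes CDX1, CDX2, HNF4A, HNF4G, GATA4, GATA6 and FOXA1 were examined for histone butyrylation in a human colon cell line and for butyrylation and acetylation in mouse large intestine. The 7 genes were chosen by name, and they are 7 of the 15978 protein-coding genes that carry the same name in human (20033 protein-coding genes) and mouse (21887). For each gene, the peaks that overlapped the gene or the 10 kb on either side were taken from every library. The series holds 12 CUT&Tag libraries, in which an antibody guides a transposase to the chromatin that carries a histone mark. The marks compared were 2 butyrylation marks (Kbu) in cells, the same 2 marks in tissue, and 2 acetylation marks (Kac) in tissue.

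The human libraries came from CCD841, a line derived from normal human colon, treated with 1 mM sodium butyrate (NaBu) for 12 to 16 h, with 2 replicates for H3K18bu and 2 for H4K12bu. No CCD841 library without NaBu and no Kac library of these cells was analysed here. The mouse libraries came from large intestine of male CETP-ApoB-100 transgenic mice, which the methods elsewhere call ApoE-deficient, and whose age is not given in the sources used here. H3K18bu and H4K12bu libraries (2 replicates each) are labelled with a high-fat, high-sucrose diet plus 5% arabinoxylan, a fermentable fiber, and H3K18ac and H4K12ac libraries (2 replicates each) with the high-fat, high-sucrose diet only. Acyl group and diet therefore cannot be told apart in the tissue, and in the contrast of cells with tissue the species, the culture, the NaBu and the diet cannot be told apart. The methods describe a low-fat control group and a high-fat, high-sucrose group later given 5% arabinoxylan. They describe no group kept on the high-fat, high-sucrose diet alone, so the diet of the Kac libraries rests on the labels. The labels call the tissue colon epithelium, while the methods describe pieces of frozen large intestine, so other cell types of the wall may be present. Fewer cells of a type and less of a mark per cell cannot be told apart in such bulk samples.

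CDX1 and CDX2 are homeobox factors, and CDX2 is known for setting and keeping the intestinal identity of the epithelium. HNF4A and HNF4G are nuclear receptors that act together in absorptive cells, the GATA factors are zinc finger proteins that pattern the gut along its length, with GATA4 known from the proximal small intestine and GATA6 also from the colon, and FOXA1 is a forkhead factor that binds closed chromatin in endoderm. Butyrylation of lysines in the tails of histones H3 and H4 has been linked to open chromatin, and butyrate made by gut bacteria from fiber feeds the pool of its donor.

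The libraries differed widely in depth, which sets how far each value can be read. The CCD841 lists held 299296 to 299720 peaks each, and the lowest median pileup, the number of read ends stacked at a peak, was 7 (H4K12bu replicate 2) against 12 to 15 in the other 3. The mouse Kbu lists held 50675 to 96432 peaks, with a median pileup of 1, and 89.2% to 91.4% of their peaks had a pileup of 1. The mouse Kac lists held 299623 to 299861 peaks, of which 72.1% and 52.0% (H3K18ac) and 52.8% and 12.8% (H4K12ac) had a pileup of 1. A pileup of 1 has a counting error as large as itself, so single regions in the mouse Kbu libraries were read as regions only where both replicates held them. The lists give no read totals per library. The weakest listed peak had a −log10 p of 5.31 and 4.56 in CCD841 H3K18bu (replicates 1 and 2). It was 4.81 and 2.97 in CCD841 H4K12bu, and 2.01 in each mouse Kbu library. A CCD841 window without a peak therefore held nothing above these values, while weaker peaks were listed in mouse Kbu.

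Both a count and a rank were used for every gene. A region in both replicates is a stretch of merged peaks with a peak of each replicate of a group. The percentile places the strongest −log10 p at a gene among the 15978 genes of the same library, which puts libraries of different depth on the same scale but keeps ties among weak peaks. In the mouse Kbu libraries many genes shared the same value, because a −log10 p of 3.98 is a pileup of 1 over the lowest background (0.0146 read ends), and a gene with nothing stronger stood at percentile 56.6 and 61.5 (H3K18bu replicates 1 and 2) or 54.6 and 39.8 (H4K12bu). The rank correlation of percentiles between replicates across all genes was 0.805 and 0.710 for H3K18bu and H4K12bu of CCD841 cells, 0.398 and 0.394 for those of mouse, and 0.546 and 0.438 for H3K18ac and H4K12ac.

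In CCD841 cells, more of these genes held H3K18bu than H4K12bu, a difference that was not tested. H3K18bu formed 22 regions in both replicates at 6 of the 7 genes, all but HNF4G, and 75.8% of all human protein-coding genes had such a region. H4K12bu formed 6 regions at 3 of the 7 genes, CDX1, GATA4 and GATA6, and 76.6% of all genes had one. In mouse tissue, regions in both replicates were found at 5 of 7 genes for H3K18bu (15 regions, 20.5% of all mouse genes), at 5 of 7 for H4K12bu (11 regions, 33.7%), at 7 of 7 for H3K18ac (23 regions, 58.7%) and at 7 of 7 for H4K12ac (11 regions, 61.4%). No test was made of 2 replicates against 2, since an exact test of that size cannot pass 0.05. Of the 15 and 11 mouse Kbu regions, 10 and 9 had a pileup of 1 in a replicate, and at a q below 0.05 no mouse Kbu region was left at any of the 7 genes. This describes the lists as a whole, since 1.53% to 2.43% of all peaks of the 4 mouse Kbu libraries passed that q, against 100.0% in 3 of the CCD841 libraries and 56.3% in H4K12bu replicate 2.

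**Figure D1:**
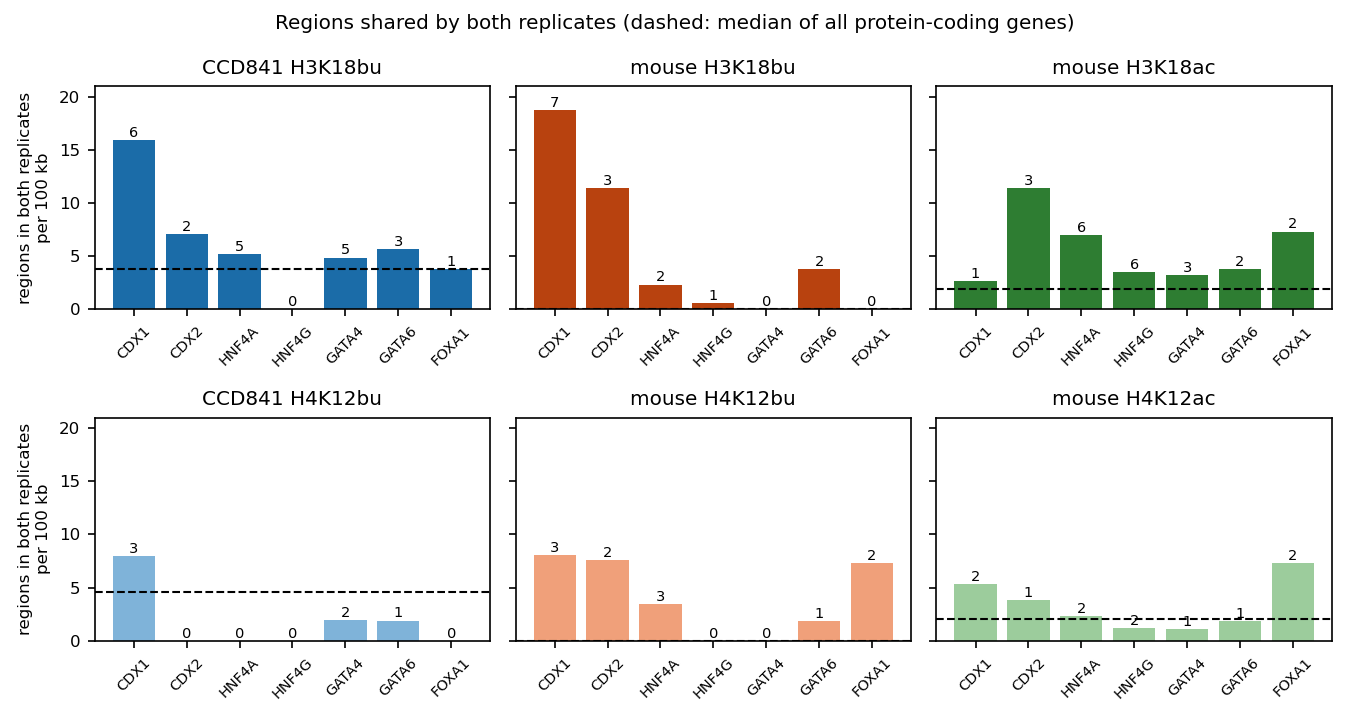
Regions in both replicates per 100 kb of gene and 10 kb flanks, 1 panel per mark, with the number of regions above each bar and the median of all protein-coding genes of the species as a dashed line (at 0 in both mouse Kbu panels). CDX1 had the highest bar in CCD841 H3K18bu (15.9) and mouse H3K18bu (18.7), and the H4K12bu bars of CDX2, HNF4A, HNF4G and FOXA1 were 0 in CCD841 cells.

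The place of the regions was read against the gene models. In CCD841 cells the H3K18bu regions comprised 10 in introns, 3 over exons, 6 downstream, 2 upstream and 1 within 1 kb of a start site, where 44.0% of all genes had a region in both replicates within 1 kb of a start (35.4% for H4K12bu). The only such start in CCD841 cells, for both marks, belongs to a transcript that begins late in GATA4 and keeps an intron (chr8:11756493). In mouse tissue, start sites were known for Cdx2, Hnf4a and Foxa1 only, and 1 of their regions per mark lay within 1 kb of a start: Cdx2 for H3K18bu, and Foxa1 for H4K12bu, H3K18ac and H4K12ac. Among all mouse genes, 6.94%, 16.4%, 23.6% and 27.3% had such a region for H3K18bu, H4K12bu, H3K18ac and H4K12ac. For Cdx1, Hnf4g, Gata4 and Gata6 of mouse, positions are given relative to the ends of the gene, and regions lay within 1 kb of an end in Cdx1 (H3K18bu and H3K18ac), Gata6 (H3K18bu, H4K12bu and H3K18ac) and Hnf4g (H3K18ac and H4K12ac). With such ends counted as starts, 3, 2, 4 and 2 of the 7 mouse genes had a region there in both replicates. The strand of the genes without known starts was not given, so such an end may be the 3′ end.

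CDX1, whose product is found in the crypts of the intestine, had the highest density of regions of the 7 genes in CCD841 cells (chr5:150166778-150184558, plus strand, GRCh38). Its strongest peaks had pileups of 37 and 23 in H3K18bu and 47 and 12 in H4K12bu, with −log10 p from 5.91 to 24.9, which is percentile 79.3, 56.5, 92.8 and 42.2. The replicates of H4K12bu were 50.7 percentile points apart. For H3K18bu 6 regions and for H4K12bu 3 were found in both replicates, and the H3K18bu density of 15.9 per 100 kb stood at percentile 97.5 of all human protein-coding genes. The upstream region, 5.14 kb before the start, was covered by both marks in both replicates (H3K18bu chr5:150161395-150161887, H4K12bu chr5:150161344-150162084). A second place shared by both marks lay in an intron, 5.60 kb after the start (chr5:150172223-150172524 for H3K18bu). The start itself had no peak within 1 kb in any of the 4 libraries, and the last downstream region lay within 1 kb of the start of the neighbour SLC6A7, a transporter gene.

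The middle 300 bases of the upstream H3K18bu region are shown as one of the places, with others at CDX1, GATA4 and GATA6, where both butyrylation marks met in all 4 CCD841 libraries (chr5:150161491-150161790, GRCh38, plus strand). Capitals mark a match to TGANTCA, the letters bound by AP-1.
CDX1 upstream region: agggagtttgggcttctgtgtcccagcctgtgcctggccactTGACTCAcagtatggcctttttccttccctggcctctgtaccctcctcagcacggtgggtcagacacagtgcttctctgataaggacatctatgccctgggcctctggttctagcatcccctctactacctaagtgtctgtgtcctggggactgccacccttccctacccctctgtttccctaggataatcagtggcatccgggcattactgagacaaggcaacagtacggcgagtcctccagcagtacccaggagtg

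In mouse tissue Cdx1 (chr18:61018862-61036199, GRCm38) had 7 regions of H3K18bu and 3 of H4K12bu in both replicates, the highest density of the 7 genes for both marks. The 18.7 H3K18bu regions per 100 kb stood at percentile 100.0 of all mouse genes after rounding, and the 8.03 of H4K12bu at percentile 98.1, while H3K18ac had 1 region (percentile 58.0) and H4K12ac 2 (percentile 83.7). The H3K18bu regions that began at chr18:61017286, chr18:61023147, chr18:61034854 and chr18:61037838 had a pileup of 1 in at least 1 replicate. The last of them lay outside Cdx1, inside the neighbour Gm52351. Of the H4K12bu regions, only chr18:61034801-61035013 had pileups above 1 in both replicates (2 and 3). The strongest peaks of Cdx1 stood at percentile 96.2 and 96.3 (H3K18bu), 81.0 and 95.4 (H4K12bu), 82.3 and 97.6 (H3K18ac) and 54.6 and 46.4 (H4K12ac). The region at the lower end of the gene (chr18:61017954-61018317) had pileups of 4 and 2 in H3K18bu and 9 and 13 in H3K18ac, and 1 library each of H4K12bu and H4K12ac also covered it.

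CDX2 (chr13:27960918-27969315, minus strand) had listed H3K18bu peaks but no listed H4K12bu peak in CCD841 cells. H3K18bu peaks reached −log10 p 13.8 and 7.72 (percentile 64.3 and 36.5), and neither H4K12bu library had any peak in the 28.4 kb window (percentile 4.30 and 2.12, the value of all genes without a peak). The H4K12bu lists ended at −log10 p 4.81 and 2.97, so weaker peaks there would not be seen. Of the 2 H3K18bu regions, the upstream one lay 2.72 kb before the start (chr13:27971731-27972347, pileups 21 and 9) and the other lay downstream, within 1 kb of the start of the noncoding gene LINC00543. No peak lay within 1 kb of either annotated start.

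Mouse Cdx2 (chr5:147300900-147307249, minus strand) carried H3K18bu next to its start in both replicates. The peaks, chr5:147306986-147307248 in replicate 1 and chr5:147306861-147307313 in replicate 2, had pileups of 2 and 3 and −log10 p of 5.39 and 5.64, and only that of replicate 2 reached over the start itself. Of the other 6 mouse libraries, only H4K12bu replicate 2 had peaks within 1 kb of the start, with a pileup of 1, and the Kac libraries had none. A region 8.13 kb upstream, inside the neighbour Urad, was shared by H3K18bu, H4K12bu and H3K18ac, in both replicates of each, and not by H4K12ac. The percentiles were 92.1 and 96.3 (H3K18bu), 90.7 and 18.9 (H4K12bu), 94.8 and 89.0 (H3K18ac) and 15.4 and 55.4 (H4K12ac), so the replicates of H4K12bu disagreed by 71.8 points.

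The 250 bases before the CDX2 start in each species are shown because both mouse H3K18bu replicates, and no CCD841 library, had a peak within 1 kb of the start (human chr13:27969316-27969565, GRCh38, minus strand, canonical transcript; mouse chr5:147307250-147307499, RefSeq on GRCm38.p6, minus strand). Capitals mark, on either strand, matches to TTTATTG for the CDX family, AGATAA for the GATA family and TGTTTAC for the FOXA family.
CDX2 human promoter: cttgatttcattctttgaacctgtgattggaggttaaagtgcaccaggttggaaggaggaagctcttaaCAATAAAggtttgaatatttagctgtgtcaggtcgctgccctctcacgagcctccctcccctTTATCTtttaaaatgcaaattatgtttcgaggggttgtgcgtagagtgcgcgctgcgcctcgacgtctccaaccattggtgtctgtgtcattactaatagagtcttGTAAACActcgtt
Cdx2 mouse promoter: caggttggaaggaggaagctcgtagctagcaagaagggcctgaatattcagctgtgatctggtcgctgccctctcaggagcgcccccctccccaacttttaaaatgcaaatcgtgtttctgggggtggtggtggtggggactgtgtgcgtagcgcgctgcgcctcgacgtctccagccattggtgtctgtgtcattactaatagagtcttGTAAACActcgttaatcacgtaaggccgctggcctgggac
Within the bases shown, the longest identical run was 47, reaching the end of the human sequence at its start site, so that it is cut there and is a lower limit, from base 204 of the human and base 177 of the mouse sequence, and the FOXA letters lay in it. The CDX and GATA letters were matched in the human sequence only.

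HNF4A (chr20:44355699-44432845, plus strand) had weaker peaks in CCD841 cells than most genes. The −log10 p of the strongest peak was 9.44 and 7.09 in H3K18bu and 6.13 and 4.73 in H4K12bu, and the percentiles were 37.9, 30.0, 14.6 and 19.9. All 4 values were below the median gene. The 5 H3K18bu regions were spread over the gene, 3 in introns and 2 over exons, 1 of them 1.55 kb after the second group of start sites and 1 at the 3′ end. Another lay within 1 kb of the start of the noncoding gene ENSG00000233376. H4K12bu had 2 and 3 regions in the single replicates, with none shared.

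Mouse Hnf4a (chr2:163506811-163572907, plus strand) stood at percentile 98.0 and 96.8 in H3K18bu, 54.6 and 39.8 in H4K12bu, 95.6 and 77.6 in H3K18ac and 28.3 and 55.4 in H4K12ac. The H3K18bu values, from pileups of 3 in both replicates, were the highest of the 7 genes, and the H4K12bu values were those of a pileup of 1. The strongest H3K18bu peaks of the replicates did not overlap (chr2:163552436-163552802 and chr2:163549700-163549998). A region inside the gene, 11.8 kb before the second start, and one downstream of the gene, 27.2 kb after that start, were found in both replicates of H3K18bu, H4K12bu and H3K18ac, and in 1 H4K12ac library. At the second start, H3K18bu replicate 1 (pileup 2), H4K12bu replicate 1 (pileup 1), H3K18ac replicate 2 (pileup 6) and H4K12ac replicate 2 (pileup 2) had a peak over the start itself, so no mark had it in both replicates.

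The second start of HNF4A is shown in both species (human chr20:44400989-44401238, GRCh38, plus strand; mouse chr2:163546905-163547154, RefSeq on GRCm38.p6, plus strand), because 4 of 8 mouse libraries and 0 of 4 CCD841 libraries had a peak in the 300 bases that run from 250 before to 50 after it. Capitals mark a match to TGANTCA.
HNF4A human promoter: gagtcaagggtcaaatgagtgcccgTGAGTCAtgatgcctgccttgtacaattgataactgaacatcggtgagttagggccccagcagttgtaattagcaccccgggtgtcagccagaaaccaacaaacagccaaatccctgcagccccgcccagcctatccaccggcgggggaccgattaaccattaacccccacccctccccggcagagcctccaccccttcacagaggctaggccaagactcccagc
Hnf4a mouse promoter: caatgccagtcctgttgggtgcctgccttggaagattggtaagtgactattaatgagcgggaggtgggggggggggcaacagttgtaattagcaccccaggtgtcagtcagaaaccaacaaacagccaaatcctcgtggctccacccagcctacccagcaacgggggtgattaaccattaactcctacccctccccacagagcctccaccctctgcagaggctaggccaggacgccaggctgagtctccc
Within the bases shown, the longest identical run was 25 bases. Neither sequence held CAAAGTCCA or CAAAGGTCA, the letters searched for HNF4.

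HNF4G (chr8:75407914-75566834, plus strand) was the only gene of the 7 with no region in both replicates in CCD841 cells. The H3K18bu libraries had 2 peaks and 1 peak in the 178.9 kb window (−log10 p 11.4 and 5.55, percentile 50.2 and 16.7). Both replicates had a peak within 1 kb of the first start, chr8:75407138-75407278 and chr8:75407299-75407402, which do not overlap. H4K12bu replicate 1 had no peak (percentile 4.30) and replicate 2 had 4, up to −log10 p 5.74 (percentile 38.1).

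In mouse, Hnf4g (chr3:3508030-3659800) had most of its regions in H3K18ac. The percentiles were 94.5 and 94.7 in H3K18ac, 95.3 and 61.5 in H3K18bu, 54.6 and 66.8 in H4K12bu, and 28.3 and 45.6 in H4K12ac. H3K18ac had 6 regions in both replicates against 1 for H3K18bu and 0 for H4K12bu. The single H3K18bu region (chr3:3633982-3634227) had a pileup of 1 in both replicates and lay in the strongest H3K18ac region (chr3:3633902-3634391), with pileups of 5 and 6.

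GATA4 (chr8:11676959-11760002, plus strand), the factor of the proximal small intestine, was the gene with the smallest difference between cells and tissue. In CCD841 H3K18bu its strongest peaks had −log10 p 14.4 and 14.9 (percentile 66.6 and 79.0), and in H4K12bu 7.24 and 5.62 (21.4 and 34.3). For H3K18bu 5 and for H4K12bu 2 regions were found in both replicates. A pair near the 3′ end, at chr8:11757118-11757913 (−log10 p 5.43 and 8.37 in H3K18bu) and over an exon at chr8:11758041-11758454 (12.8 and 14.9), carried both marks in all 4 libraries. An intron region at chr8:11742821-11743831 (13.1 and 7.14) carried H3K18bu only. The downstream H3K18bu region overlapped the start of the DNA repair gene NEIL2.

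Mouse Gata4 (chr14:63198914-63271712) had no Kbu region in both replicates. In each of the 4 Kbu libraries the strongest peak had a pileup of 1, with 6, 1, 1 and 1 peaks in the window, and the percentiles of 56.6, 61.5, 54.6 and 39.8 were those of that pileup. H3K18ac had 3 regions and H4K12ac 1, at percentile 43.8 and 25.5, and 42.1 and 33.9, so Gata4 had the lowest mean percentile of the 7 genes in H3K18ac.

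GATA6 (chr18:22169589-22202528, plus strand), which is also expressed in the colon, had 3 H3K18bu regions and 1 H4K12bu region in CCD841 cells, with percentiles of 59.0 and 38.8, and 25.3 and 19.9. The region with both marks lay near the 3′ end (H3K18bu chr18:22200403-22200599, H4K12bu chr18:22200182-22200846). The widest, chr18:22185124-22186835, lay 15.0 kb after the start. H3K18bu replicate 1 had a peak within 1 kb of the first annotated start (chr18:22169589) and replicate 2 within 1 kb of the second (chr18:22170933), and no H4K12bu library had one at either.

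Mouse Gata6 (chr18:11052510-11085636) had 3 of its 6 regions at the lower end of the gene, which faces the antisense gene Gata6os, and 3 inside the gene. At the lower end, H4K12bu (chr18:11052144-11052408) and H3K18ac (chr18:11052107-11052688) overlapped there, and H3K18bu had a region beside them (chr18:11053143-11053391, pileups 2 and 2). Inside the gene lay 1 region each of H3K18bu (chr18:11057301-11057504), H3K18ac (chr18:11061057-11061247) and H4K12ac (chr18:11059412-11059816), which is the only H4K12ac region of the gene. The percentiles were 80.6 and 91.2 (H3K18bu), 21.6 and 61.4 (H4K12bu), 67.4 and 71.5 (H3K18ac), and 56.7 and 87.8 (H4K12ac).

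FOXA1 (chr14:37589552-37596059, minus strand) showed the widest gap in mean percentile between cells and tissue. In CCD841 cells it had 3 and 2 H3K18bu regions, −log10 p 12.6 and 6.38 (percentile 57.8 and 22.6), of which 1 was shared by both replicates and lay 10.4 kb after the nearest start, downstream of the gene (chr14:37583611-37584130). Neither H4K12bu library had a peak in the 26.5 kb window (percentile 4.30 and 2.12), where the lists ended at −log10 p 4.81 and 2.97.

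Mouse Foxa1 (chr12:57540628-57548029, minus strand) stood at percentile 95.8 and 85.2 in H3K18bu, 84.6 and 93.1 in H4K12bu, 55.1 and 89.0 in H3K18ac, and 50.6 and 51.4 in H4K12ac. A region about 1 kb before the RefSeq start, inside the annotated extent of the gene and of its neighbour Ttc6, was found in both replicates of H4K12bu (chr12:57547011-57547236), H3K18ac (chr12:57546976-57547291) and H4K12ac (chr12:57546761-57547236), and in 1 H3K18bu library. The H3K18bu replicates shared no region in the 27.4 kb window although they held 6 and 4. The strongest Kbu peaks began at chr12:57536044 and chr12:57545624 (H3K18bu, pileups 3 and 2) and at chr12:57535009 and chr12:57535995 (H4K12bu, pileups 2 and 4). Neither mark had its strongest peak at the same place in both replicates. All but that of H3K18bu replicate 2 lay downstream of the gene.

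**Figure D2:**
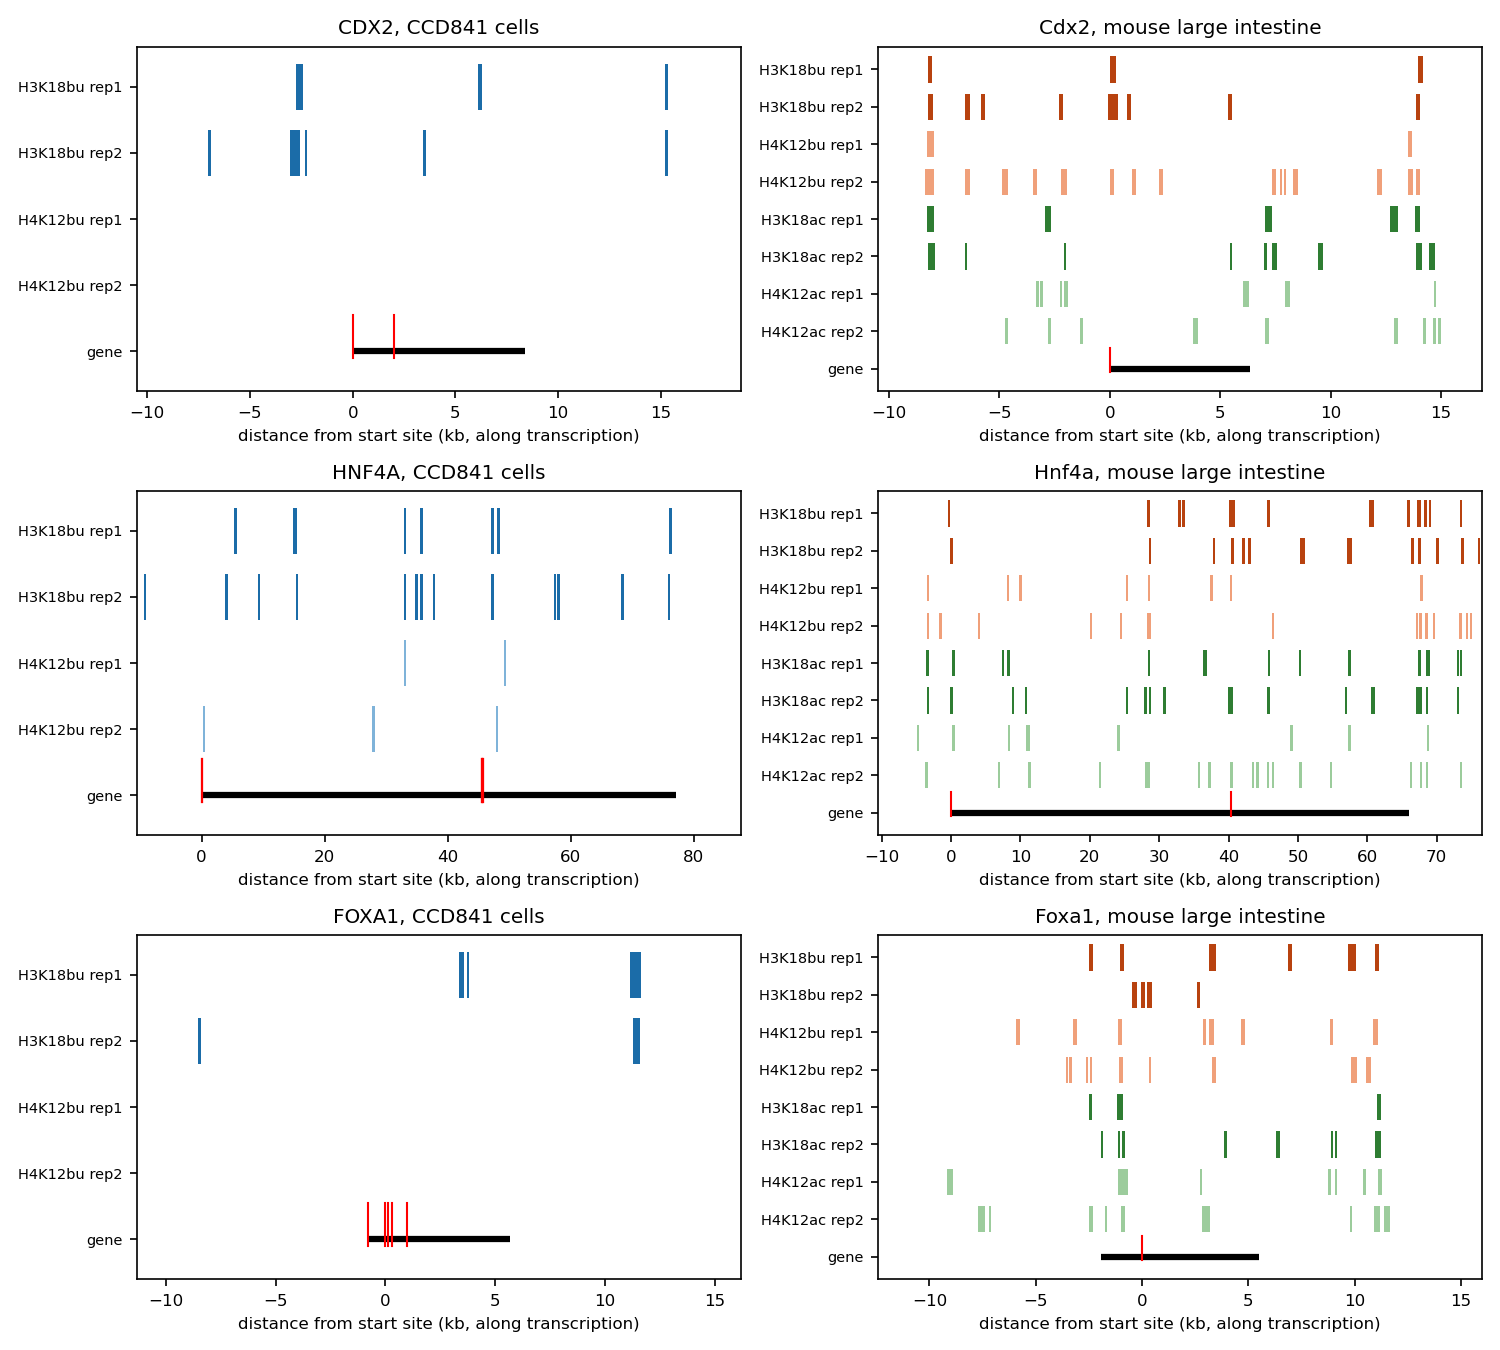
Regions of each library along CDX2, HNF4A and FOXA1 in CCD841 cells (left) and along the mouse genes (right), with distance from the start site in kb along transcription. Each row is a library, coloured by mark as in the other plots, the black line is the gene, red ticks are annotated starts, and narrow regions are widened to stay visible. The H4K12bu rows of CDX2 and FOXA1 are empty in CCD841 cells, and the H3K18bu rows of mouse Cdx2 hold a region next to the start.

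The contrast between cell line and tissue was then tested with the percentiles. The mean over the 4 Kbu libraries was lower in CCD841 cells than in mouse tissue for each of the 7 genes, from a difference of -2.79 points for GATA4 to -68.0 for FOXA1, a direction that for GATA4 turned under other settings (10.2 by the percentile of covered bases per kb and 4.19 with the gene alone). The median difference was -42.2 over the 7 genes against -0.340 over all 15978. At HNF4A (25.6 ± 10.4 in cells, 72.3 ± 29.6 in tissue, SD, n = 4), HNF4G (27.3 ± 20.7 and 69.5 ± 17.9) and FOXA1 (21.7 ± 25.8 and 89.7 ± 5.64) every cell line library lay below every tissue library. The margin was narrow at HNF4A (highest value in cells 37.9, lowest in tissue 39.8) and HNF4G (50.2 and 54.6). These lowest tissue values are those of a pileup of 1 over the lowest background. Non-overlap with lower values in cells was found in 7.02% of all genes and in the opposite direction in 8.17%, where none of the 7 genes fell. A gene without a peak holds the shared lowest rank of its library, which differs between libraries, and when a peak was required in every library of the higher side the same 3 genes were lower, against 5.96% of all genes. The exact two-sided permutation p over 70 assignments was 0.0286 for each of the 3 genes, the smallest this design can give, with a Benjamini-Hochberg adjusted p of 0.188. No gene of the 15978 passed an adjusted p of 0.05 in this exact permutation test, and 2428 (15.2%) passed an unadjusted p of 0.05. The 4 libraries of a side hold 2 marks with 2 replicates each, nothing in the labels says whether replicates or marks share a culture or a mouse, and the p-values measure only the spread between these libraries.

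The other 4 genes overlapped between the groups. CDX1 had 67.7 ± 22.7 in cells and 92.3 ± 7.49 in tissue (exact permutation p = 0.0571, n = 4), CDX2 26.8 ± 29.5 and 74.5 ± 37.2 (exact p = 0.0857), GATA6 35.8 ± 17.5 and 63.7 ± 30.7 (exact p = 0.171) and GATA4 50.3 ± 26.9 and 53.1 ± 9.33 (exact p = 0.857). Within each residue, that is H3K18bu against H3K18bu and H4K12bu against H4K12bu, 4 genes did not overlap, CDX2, HNF4A, HNF4G and FOXA1, against 11.1% of all genes (exact p = 0.0556 for each, the smallest that 36 assignments give). With the gene body alone, no gene of the 7 was separated, and the differences were -34.9 for HNF4A, -38.6 for HNF4G and -49.9 for FOXA1. With peaks of a pileup of at least 2, FOXA1 was the only one separated with a peak in all 4 mouse libraries, against 1.70% of all genes by that rule. At a q below 0.05 each of the 7 genes lacked a peak in at least 2 of the 4 mouse Kbu libraries, so the percentiles could not be compared there. Without replicate 1 of mouse H4K12bu 5 genes were, with CDX1 and GATA6 added, against 9.28%. By the percentile of covered bases per kb 5 were lower without overlap, CDX1, CDX2, HNF4A, HNF4G and FOXA1, against 10.4% of all genes, while the covered bases per kb of all 5 themselves overlapped.

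**Figure D3:**
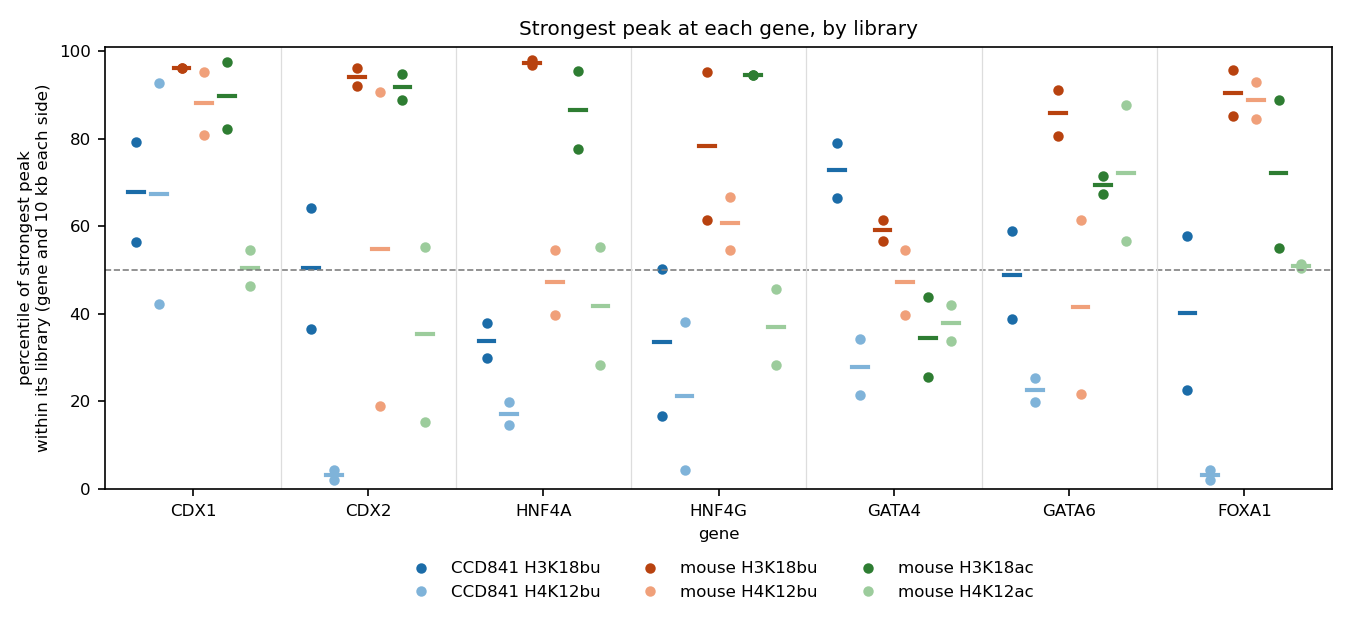
Percentile of the strongest peak at each gene within its library (0 to 100), with 1 point per library, a bar for the mean of the 2 replicates, and the 6 marks by colour. The dashed line is percentile 50, and the CCD841 points of HNF4A, HNF4G and FOXA1 all sit below their mouse Kbu points.

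In mouse tissue, butyrylation and acetylation were not separated at any of the 7 genes. The mean difference of percentiles, Kbu minus Kac, ran from -7.15 (GATA6) to 28.1 (FOXA1), with a median of 10.8 against 0.293 for all genes. The sign of 5 of the 7 differences (CDX2, HNF4A, HNF4G, GATA4 and GATA6) turned under at least 1 other setting or with 1 library left out, such as GATA6 with 12.9 by the percentile of covered bases per kb and 6.61 with the gene alone. Non-overlap with higher Kbu was found in 2.60% of all genes and with lower Kbu in 2.10%. The smallest exact permutation p of the 7 genes was 0.0857 (GATA4 and FOXA1), each with an adjusted p of 0.759, and no gene of the 15978 passed an adjusted p of 0.05 (752, or 4.71%, passed an unadjusted p of 0.05). Within residues no gene was separated, against 4.96% of all genes with higher and 3.71% with lower Kbu. Ranked within the library by covered bases per kb instead of by the strongest peak, CDX1 and HNF4A had higher percentiles in all 4 Kbu libraries than in all 4 Kac libraries, against 6.30% of all genes, while the covered bases per kb of HNF4A themselves overlapped. Single libraries decided other calls: FOXA1 became separated, with higher Kbu, without replicate 2 of H3K18ac (4.45% of all genes at that setting), and GATA4 without replicate 2 of H4K12bu (5.25%).

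The overlap of marks within a species was counted at these genes, with no value for chance. Of the 22 CCD841 H3K18bu regions, 10 overlapped a peak of at least 1 H4K12bu library and 12 did not, and of the 6 H4K12bu regions 5 overlapped H3K18bu. In mouse, 12 of the 15 H3K18bu regions overlapped H4K12bu, 9 overlapped H3K18ac and 9 overlapped H4K12ac. Of the 23 H3K18ac regions, 11 overlapped H3K18bu and 11 H4K12bu, and of the 11 H4K12ac regions 5 overlapped H3K18bu and 5 H4K12bu. The Kbu lists are shorter than the Kac lists, and the part of list length in these counts was not tested.

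The letters of the factors themselves were searched on both strands in the middle 300 bases of each CCD841 region. Of the 22 H3K18bu windows, 5 held TGTTTAC (FOXA), in 22.7% against 3.93% of the 108524 windows of all H3K18bu regions in both replicates, and lay at CDX1 (2), GATA6 (2) and HNF4A (1). Of the 22, 2 held TGANTCA (AP-1, 9.09% against 14.8%, at CDX1 and GATA4), and none held TTTATTG for the CDX family (3.59% of all windows), AGATAA for the GATA family (11.0%), or CAAAGTCCA or CAAAGGTCA for HNF4 (0.875%). Of the 6 H4K12bu windows, 1 held TGANTCA (16.7% against 11.7% of all 90463 H4K12bu windows) and none held TGTTTAC (3.32%) or the letters of the other factors. In the 250 bases before to 50 after the start, TGTTTAC was found in 3.65% of 32851 mouse promoters and 2.79% of 20032 human ones, and it was present in CDX2 of both species and in mouse Foxa1. A match is a description of the letters and not of binding.

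Other genes of the pathway were taken as lists and described by counts. Among 22 other intestinal factors, 13 had an H3K18bu and 10 an H4K12bu region in both CCD841 replicates, against 80.5% and 81.7% of all same-name genes. In mouse tissue 15 had H3K18bu and 12 H4K12bu regions, against 24.9% and 40.8%, and 18 had H3K18ac and 14 H4K12ac regions, against 69.6% and 72.3%. Of the 22, 6 (FOXA2, GATA5, ISX, NEUROG3 and PDX1 among them; 7.02% of all genes) were lower in all 4 CCD841 than in all 4 mouse Kbu libraries, although PDX1 had no peak in 1 of the mouse libraries, and the vitamin D receptor gene VDR was higher. The mouse Kbu percentiles of NEUROG3 (29.4, 61.5, 54.6 and 39.8) did not exceed those of a pileup of 1. VDR and TCF7L2, a factor of the Wnt pathway, were among the strongest of the list in CCD841 cells, with a lower-replicate −log10 p of 21.6 and 34.5 in H3K18bu, and in mouse H3K18ac with 7.53 and 7.89. From the list, 9 had no region in both replicates in CCD841 cells, among them ATOH1, which drives secretory cells, and ASCL2 of intestinal stem cells, and 2, ONECUT2 and SPDEF, had none in mouse.

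Among 15 epithelial target genes of these factors, 5 were lower in CCD841 cells without overlap (CDH17, GPA33, KRT20, TFF3 and A1CF, the last with no peak in 1 of the mouse libraries) and none higher, against 7.02% and 8.17% of all genes. The mouse Kbu percentiles of TFF3 (56.6, 61.5, 54.6 and 15.2) and A1CF (56.6, 61.5, 10.7 and 39.8) did not exceed those of a pileup of 1. GPA33, an antigen of the colon surface, had the highest H3K18ac of the list in mouse, with a lower-replicate −log10 p of 13.8, and 10.1 in H4K12bu. VIL1, which bundles actin in microvilli, and GPA33 were among the strongest in CCD841 H3K18bu (12.9 and 12.6). TFF3, FABP1 and A1CF had no region in both replicates in CCD841 cells, and FABP1 had none in mouse either. Between mouse Kbu and Kac, MUC2 and MYO1A were higher in Kbu without overlap (2.60% of all genes), and the epithelial marker KRT18 was lower (36.8 against 88.6 in mean percentile, 2.10% of all genes). The Kbu percentiles of MUC2 (56.6, 35.3, 54.6 and 39.8) did not exceed those of a pileup of 1, so its order rests on single read ends. Of 15 transcription factors of other lineages, 0 had an H3K18bu and 1 an H4K12bu region in mouse tissue, where 24.9% and 40.8% of all genes had one, and 9 and 6 in CCD841 cells, where 80.5% and 81.7% had one. MYOD1, the muscle regulator, was the only one higher in CCD841 cells without overlap (none was lower). GATA1 had a higher percentile in the 4 Kbu than in the 4 Kac mouse libraries, but it had no peak in 1 of the Kbu libraries, so that order holds no comparison.

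Markers of other cell types were measured beside these genes. All 12 mesenchyme markers had an H3K18bu and 11 an H4K12bu region in both CCD841 replicates, against 80.5% and 81.7% of all same-name genes, and 2 and 3 had one in mouse Kbu, against 24.9% and 40.8%. Their covered bases per kb were 40.3, 41.8, 43.0 and 28.6 in the CCD841 libraries, 4.04, 4.35, 3.96 and 9.81 in mouse Kbu, and 27.4 to 33.5 in mouse Kac, with TWIST2 strongest in 3 CCD841 libraries (−log10 p 39.9, 39.8 and 31.2). COL3A1 and TWIST2 were higher in CCD841 cells without overlap. Of the 12 epithelial markers, 9 and 8 had a region in both CCD841 replicates and 9 and 8 in mouse Kbu, with 41.9, 31.8, 30.1 and 19.3 covered bases per kb in CCD841 cells and 16.9 to 30.2 in mouse Kbu. EPCAM, KRT20, CDH17, CLDN7 and ESRP1 were lower in CCD841 cells without overlap and none was higher, against 7.02% and 8.17% of all genes, and CLDN7 and ESRP1 had no region in both replicates there. KRT8, KRT19 and CLDN4 were the strongest of the list in CCD841 cells and had higher mean percentiles there than in mouse Kbu, with overlap (87.8 and 80.5 for KRT8, 82.4 and 53.4 for KRT19, and 76.2 in cells for CLDN4). ESRP1 had no peak in at least 1 replicate of each CCD841 mark. The line is labelled epithelial, and both marks were found at markers of both kinds. The part of either marker list in the contrast of the 7 genes was not tested.

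The remaining markers were counted in the same way, beside 80.5% and 81.7% of all genes in CCD841 H3K18bu and H4K12bu, 24.9% and 40.8% in mouse Kbu, and 69.6% and 72.3% in mouse Kac. For 6 smooth muscle markers the counts were 5 and 6 in CCD841 H3K18bu and H4K12bu, 0 and 3 in mouse Kbu, and 4 and 5 in mouse Kac, and ACTG2 was strongest in 3 of the 4 mouse Kbu libraries (−log10 p 5.39, 7.40 and 10.3). For the 5 matched immune markers they were 5 and 4, 0 and 0, and 2 and 4, with CD3E and CD79A higher in CCD841 cells without overlap. For 6 markers of enteric neurons and glia they were 4 and 4, 0 and 0, and 3 and 4, with no gene separated.

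**Figure D4:**
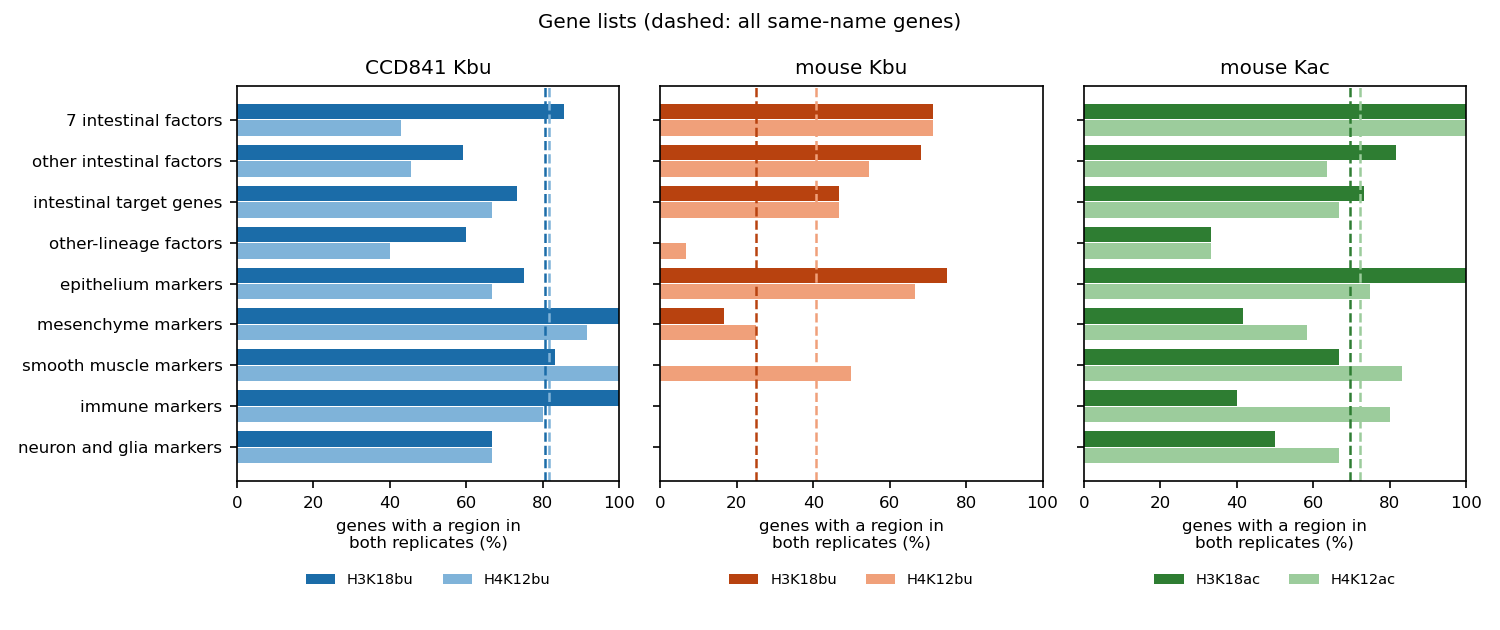
Share of each gene list with a region in both replicates (percent), for CCD841 Kbu, mouse Kbu and mouse Kac, with 1 bar per mark and dashed lines for all 15978 same-name genes. The bars of the 7 factors lie above both lines in the mouse panels, and the H4K12bu bar lies below its line in CCD841 cells.

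The genes closest to each factor over the 12 library percentiles were named by the smallest Euclidean distance, as a description. For CDX1 they were TPD52 (distance 44.7) and PFKFB4 (48.2), for CDX2 ACER1 (41.8) and TCIM (42.9), and for HNF4A UGCG (39.3) and KCNK5 (39.7). For HNF4G they were DLL4 (50.1) and MROH7 (51.1), for GATA4 CUX2 (34.1) and LSP1 (35.3), for GATA6 TMPRSS7 (30.3) and CDH1 (34.9), and for FOXA1 CERS4 (41.7) and SSTR1 (42.4).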

How the data were processed

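The 12 libraries were made by CUT&Tag, and 1 peak list per library was analysed. Per the submitters' processing notes, reads were handled with bcl2fastq 2.17.1, cutadapt 1.9.1, Bowtie2 2.3.1 and MACS2 2.1.0 on hg38 and mm10. The authors called peaks in each library at a p of 0.01 without a control, kept the strongest up to a fixed number, and deposited for each peak a fold enrichment (pileup over local background), a −log10 p and a −log10 q. The read depth is not part of these lists, so each pileup was solved from the fold and the p. Overlapping peaks were merged, and a region of a group needed a peak of both replicates with at least 1 bp of overlap. Groups of 4 libraries were compared by within-library percentile with a two-sided exact permutation test over all 15978 same-name genes, with Benjamini-Hochberg adjustment. The pileup solution, the counting and the test were tested on simulated data. Python 3.11.15, numpy 2.4.6, pandas 2.3.3, scipy 1.17.1 and matplotlib 3.10.9 were used. The members, the gene lists and the tests were chosen with earlier results of these data known. All 7 members were named, with the 3 strongest genes of a list per mark, the genes without overlap, and the 2 genes most like each member. Single genes of the lists were added after their values were seen. Some genes of the lists count in the totals but are not reported here by name. Peaks tied in strength were ordered at random with a fixed seed where lists were cut to the same number. The study's read-based comparison of groups was not repeated. Human genes followed GENCODE on GRCh38 and mouse genes RefSeq on GRCm38.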

Additional observations from a re-analysis of the deposited data

Results flagged for a closer look

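For each of the 7 genes, the 4 libraries of CCD841 Kbu, mouse Kbu and mouse Kac were searched for a library far from the other 3, and chance flags about 1 in 20 of the 21 groups searched. CDX1 stood at percentile 81.0 in mouse H4K12bu replicate 1, below the other 3 mouse Kbu libraries, which lay at 95.4 to 96.3 (gap over range 0.942). CDX2 stood at percentile 18.9 in mouse H4K12bu replicate 2, with the other 3 mouse Kbu libraries at 90.7 to 96.3 (0.928). That library held 15 peaks at CDX2, more than any other mouse Kbu library, and its strongest had a pileup of 2. FOXA1 stood at percentile 89.0 in mouse H3K18ac replicate 2, above the other 3 mouse Kac libraries, at 50.6 to 55.1 (0.881).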

How the results depend on the processing

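The number of the 7 genes with a region in both replicates was 6 (CCD841 H3K18bu), 3 (CCD841 H4K12bu), 5 (mouse H3K18bu), 5 (mouse H4K12bu), 7 (H3K18ac) and 7 (H4K12ac). In the same order it was 6, 3, 0, 0, 4 and 1 at a q below 0.05, 6, 2, 0, 0, 4 and 0 at a q below 0.01, 4, 3, 5, 3, 5 and 5 with the gene alone, 1, 1, 3, 2, 4 and 2 at start sites (gene ends where no start was known), 6, 2, 4, 5, 7 and 3 when each region had to be covered at least to 50%, 6, 3, 5, 3, 6 and 2 with the same number of strongest peaks, and 6, 3, 3, 2, 7 and 7 when pileups of 1 were dropped (the minimum of 2 was added after seeing the data). Single replicates gave 7 genes, or 4 and 5 in CCD841 H4K12bu. The number lower in CCD841 cells without overlap was 3 (7.02% of all genes), and 5 by the percentile of covered bases per kb (10.4%), 1 at a q below 0.05 (17.7%), 0 with the gene alone (6.67%), 2 with a pileup of at least 2 (11.7%), 3 with a peak required in every library of the higher side (5.96%, added later), 4 within residues (11.1%, also added later), and 3 to 5 when 1 library was left out. Between mouse Kbu and Kac the number higher was 0, and 2 by the same percentile of covered bases (6.30% of all genes), 1 at a q below 0.05 (16.9%, with 1 lower, 8.91%), 1 with the gene alone (4.15%), and 0 to 1 when 1 library was left out. The percentiles at a q below 0.05 carry no comparison, since a gene without a peak holds only the lowest rank of its library. Each of the 7 genes lacked a peak there in at least 2 of 4 mouse Kbu libraries. CDX2, HNF4G, GATA4 and GATA6 lacked one in all 4. With a peak required on the higher side the number lower in CCD841 cells was 0 at a q below 0.05 (0.125%) and 1 with a pileup of at least 2 (1.70%), and none was higher in Kbu at a q below 0.05 (0.0250%).

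Directions turned for 1 gene in the first contrast and for 5 of the 7 in the second. GATA4, CCD841 minus mouse Kbu, went from -2.79 to 10.2 by covered bases, 3.55 at a q below 0.05, 4.19 with the gene alone, 12.8 with a pileup of at least 2, and -12.3 to 6.84 with 1 library left out (2.54 and 0.00104 among them). In mouse Kbu minus Kac, GATA4 was -6.23 and GATA6 12.9 by covered bases, CDX2 -19.9, HNF4A -4.70 and HNF4G -18.8 at a q below 0.05, HNF4G -15.6 and GATA6 6.61 with the gene alone, and HNF4G -4.96 with a pileup of at least 2. With 1 library left out CDX2 ran from -5.25 to 29.4, HNF4A from -3.92 to 18.9, HNF4G from -8.76 to 13.4 and GATA6 from -16.3 to 6.90. The values at a q below 0.05, and those of GATA4 and HNF4G with a pileup of at least 2 (no peak in 4 and 2 of the mouse Kbu libraries), rest on such ranks. The cause of the others was not tested.

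With the replicate block the number lower in CCD841 cells was 3 (9.78% of all genes), and 1 gene (GATA4) was higher in Kbu than Kac (4.31%). The replicate differences of the groups had correlations of -0.015 to 0.020 with each other. With rank correlations between replicates of only 0.398 and 0.394 in mouse Kbu, these values cannot show whether same-numbered libraries share a culture or a mouse. Pileups of 1 limit every mouse Kbu value.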
